A study of Homo sapiens with 21 samples.

Results

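The regions described here are stretches of the genome at which exactly 1 of 4 JMJD6 ChIP-seq libraries had a peak. JMJD6 peaks of the 4 libraries were merged where they shared at least 1 bp, which gave 1689 regions, and 581 of them (34.4%) held a peak of 1 library and of no other. These one-library regions were chosen by the peak calls themselves, so their fold enrichment, q-value, width and position relative to other JMJD6 regions are descriptions without a test. The independent readout is H3K4me3, which played no part in the choice.

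All libraries came from 786-O, an established human cell line of clear cell renal carcinoma, with the genotype JMJD6 WT. The labels carry a protocol for siRNA against JMJD6 but give the ChIP samples no siRNA, and that protocol names other assays. Chromatin was fixed with formaldehyde and precipitated with an antibody to JMJD6 or to H3K4me3. JMJD6 ChIP libraries 1 and 2 were sequenced in batch 1 and libraries 3 and 4 in batch 2, as were the 2 H3K4me3 ChIP libraries. The labels do not say whether libraries are separate cultures, so differences between them may be technical. The other 15 of the 21 samples of the series are 9 RNA-seq libraries of control and JMJD6 knockout cells and 6 inputs, and they were not used here.

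JMJD6 is an oxygenase of the JmjC family that depends on iron and 2-oxoglutarate. It hydroxylates lysines of proteins such as splicing factors. It has no DNA-binding domain of a classical transcription factor, so its ChIP signal is usually read as attachment through partner proteins. H3K4me3, trimethylation of lysine 4 of histone H3, marks the start sites of active genes. The other merged regions held peaks of 2 libraries (239), 3 libraries (184) or all 4 (685), and the regions of all 4 serve as the comparison throughout.

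The one-library regions came mostly from the longest peak lists. Library 1 had 978 peaks, of which 65 (6.65%, 95% Clopper-Pearson interval 5.17 to 8.39%) were one-library regions. Library 2 had 1344 peaks, of which 296 (22.02%, 19.8 to 24.3%) were. In library 3 it was 56 of 923 (6.07%, 4.62 to 7.81%), and in library 4 it was 164 of 1139 (14.4%, 12.4 to 16.6%). These intervals cover counting error only. Libraries 2 and 4 thus held 460 of the 581 regions (79.2%), 1 library from each sequencing batch, and batch 1 held 361 and batch 2 held 220. Every one-library region consisted of a single peak.

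The length of the lists moved with these counts. When each list was shortened to its 923 peaks of lowest q-value, the merged regions included 391 one-library regions, 94 in library 1, 98 in library 2, 94 in library 3 and 105 in library 4. The counts of libraries 2, 3 and 4 moved by more than 1.5 times under this change. The cut used the q-values of the same peak calls, so whether list length set the counts was not tested. Each removed peak can also leave a region that it shared with 1 other list as a one-library region. Leaving out any list turns the regions it shared with 1 other list into one-library regions. Without library 2, 126 regions were found in library 1 alone, 97 in library 3 alone and 254 in library 4 alone. Without library 4 the counts were 84, 385 and 80 in libraries 1, 2 and 3. Without library 1 they were 355, 64 and 183 in libraries 2, 3 and 4. Without library 3 they were 73, 337 and 188 in libraries 1, 2 and 4.

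**Figure D1:**
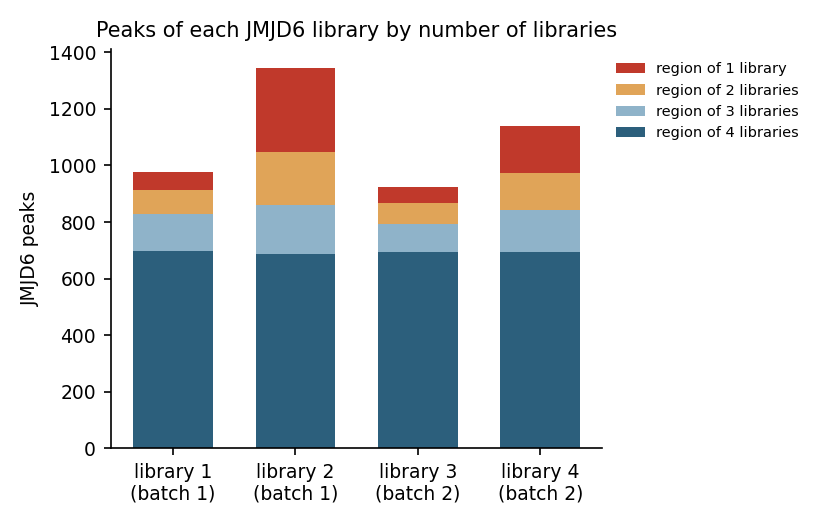
Number of JMJD6 peaks in each ChIP library (vertical axis), stacked by the number of libraries that had a peak in the same merged region. The dark blue part is nearly the same in all 4 bars (688 to 696 peaks), while the red part, the one-library regions, runs from 56 in library 3 to 296 in library 2.

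The one-library regions were weak. Fold enrichment, the authors' value for the peak summit over the peak caller's background, had a median of 5.89 in library 1, 5.38 in library 2, 6.25 in library 3 and 6.12 in library 4. Peaks of the same libraries in regions of all 4 had medians of 11.1, 12.0, 12.3 and 13.3. In strength the one-library regions lay next to the regions of exactly 2 libraries, whose peaks had medians of 5.91, 5.99, 6.46 and 6.50. The median −log10 q was 7.05, 6.64, 5.45 and 6.44 for the one-library regions of libraries 1 to 4, against 24.0, 33.4, 22.7 and 28.8 for peaks in regions of all 4. Of the 581 regions 159 (27.4%) had a −log10 q under 5.

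Within its own library a one-library region ranked low. By fold enrichment 556 of 581 (95.7%) lay below the middle rank of their list, and 2, both of library 4, lay in the strongest 25%. In library 2, one-library regions made up 51.1% of the weakest 25% of peaks, and in library 4 they made up 37.0%. In libraries 1 and 3 they made up 19.4% and 19.5%.

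They were also narrow. The median width was 220 bp in library 1, 237 bp in library 2, 172 bp in library 3 and 217 bp in library 4, against 343, 413, 303 and 349 bp for peaks in regions of all 4. A total of 125 of the 581 (21.5%) had exactly the smallest width found in their library, which was 184, 207, 161 and 177 bp in libraries 1 to 4. Of the peaks in regions of all 4, from 0.432% in library 4 to 1.15% in library 1 had that width.

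The number of DNA fragments behind these values could be worked back from the deposited columns. If the fold is the summit's fragment pileup plus 1 over the background plus 1, and the p-value is the Poisson chance of a higher pileup, then each whole number of fragments sets a background through the fold and has to give the deposited p-value. A whole number did so to within 0.002 in −log10 p for 4341 of 4384 JMJD6 peaks (99.0%) and for all 581 one-library regions. When the observed pileup itself was counted in the tail, 19 of the 4384 peaks were matched. The formula was inferred from the values, and no file header states it.

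On that reading the one-library regions rested on few fragments. The median pileup was 17 fragments in library 1, 19 in library 2, 12 in library 3 and 14 in library 4. The quartiles over regions were 15 and 19, 16 and 22, 11 and 13, and 13 and 16 fragments. For a single count equal to the median, the exact Poisson 95% limits were 9.90 to 27.2 in library 1 and 11.4 to 29.7 in library 2. They were 6.20 to 21.0 in library 3 and 7.65 to 23.5 in library 4. These limits are not an interval for the median itself. The smallest pileup of any called peak was 11, 12, 8 and 9 fragments in the 4 libraries. Peaks in regions of all 4 had median pileups of 33, 45, 28 and 34 fragments. The lower limit for the median one-library count lay below the smallest called pileup in each of the 4 libraries. Counts this near the smallest called pileup give such limits readily, and they come from the peak calls that chose the regions. Why the other lists lack these regions was not tested. Signal in the other libraries at these positions was not measured, since the lists hold peaks alone.

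**Figure D2:**
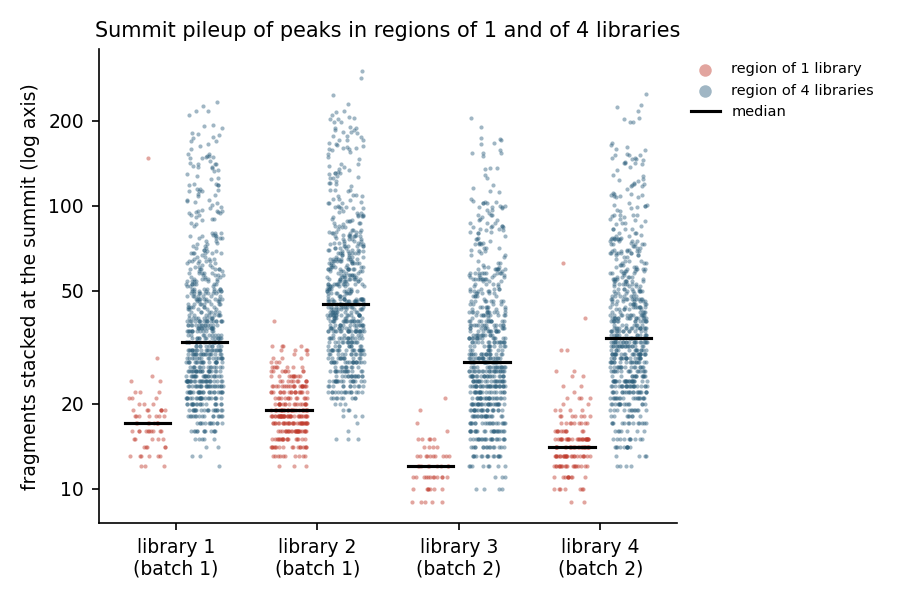
Fragments stacked at the summit of each peak (log axis), worked back from the deposited fold and p-value, for one-library regions (red) and peaks in regions of all 4 libraries (blue). Black lines are medians, and the red medians of 12 to 19 fragments lie below the blue medians of 28 to 45 in each library, with overlap between the clouds.

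Many one-library regions carried identical values. In 316 of 581 (54.4%) both the fold and the q-value were the same as in another one-library region of that library. Against each library's most common background, 1 fragment was worth 0.369 fold in library 1, 0.316 in library 2, 0.532 in library 3 and 0.382 in library 4. That background was found at 26, 81, 21 and 45 one-library regions of libraries 1 to 4, and folds there differ in whole steps of these sizes. At the other regions the background varied too, so small differences in fold need not reflect fragments. In library 1, for example, folds of 5.20 and 5.23 both had 14 fragments. Repeated folds were also found among peaks in regions of more than 1 library, so ties of fold were not particular to one-library regions. The share of tied peaks in those other regions was not counted.

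The strongest and weakest regions show the range in each library. In library 1 the 3 highest were chr10:27530983-27531190 with a fold of 8.12 and 24 fragments, chr11:74660107-74660323 with 8.11 and 21 fragments, and chr7:128502640-128502898 with 7.71 and 20 fragments. All 3 overlapped H3K4me3. The lowest of library 1 was on the unplaced contig Un_gl000220, positions 122354 to 122578, with a fold of 1.77. That contig carries copies of the ribosomal RNA genes, which are repeated many times in the genome. Its pileup was 147 fragments over a background of 82.5, the highest of both among the 581 regions.

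In library 2 the 3 highest regions all lay outside H3K4me3. They were chr19:47178104-47178405 with a fold of 10.1 and 31 fragments, chr2:97171018-97171400 with 8.54 and 26 fragments, and chr16:67196355-67196588 with 8.51 and 26 fragments. The nearest H3K4me3 region was 12.9 kb, 26.1 kb and 0.857 kb away. The lowest was chr1:156470168-156470385, with a fold of 3.27 and 21 fragments over a raised background of 5.73, inside H3K4me3 and 791 bp from a region of all 4 libraries.

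In library 3 the highest was chr6:52860115-52860345 with a fold of 10.4 and 19 fragments, and it overlapped H3K4me3. Next came 2 regions of chromosome 19 without the mark, chr19:54396355-54396572 with 9.40 and 17 fragments and chr19:53946573-53946820 with 8.51 and 15 fragments. The lowest was chr5:138739766-138739968, with a fold of 4.15 and 11 fragments, inside H3K4me3. In library 4 the lowest was chr1:94313003-94313281, with 3.55 and 14 fragments, also inside H3K4me3. The 3 highest of library 4 were all on chromosome 17 and are taken up below.

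The widest one-library regions were chr8:123964485-123965256 (772 bp) and chr12:125398881-125399565 (685 bp), both of library 4, and chr11:2958895-2959548 (654 bp) of library 2. Their folds of 6.12, 6.50 and 7.90 ranked at 81.7%, 75.7% and 47.2% of their libraries' lists, counted from the strongest peak. Of these the region of chromosome 12 overlapped H3K4me3.

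The strongest one-library signal was a run of neighbouring regions in library 4. Runs were formed from one-library regions of the same library at most 10 kb apart. Libraries 1 and 3 had 0 runs, library 2 had 4 runs of 2 regions, and library 4 had 3 runs of 2 and 1 run of 5. The run of 5 spanned 7917 bp, from position 74714727 to 74722643 of chromosome 17. In hg19 this stretch lies in the JMJD6 gene itself. The gene was placed from general knowledge after the values had been seen, because an hg19 annotation was not used here, and no exon was assigned to any region.

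In that run chr17:74714727-74715067 had a fold of 11.5 and 31 fragments. The weakest of the 5, positions 74716304 to 74716657, had a fold of 7.89 and 26 fragments. Next, chr17:74719726-74720223 had 15.9 and 40 fragments, and chr17:74721451-74722073 had 18.7 and 63 fragments, the highest fold of all one-library regions, with a −log10 q of 60.6. The fifth, chr17:74722321-74722643, had 10.2 and 31 fragments. Library 4 pileups of 26 to 63 at these positions compare with a median of 14 over its one-library regions.

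Libraries 1, 2 and 3 had 0 peaks within 30 kb of this run, and the nearest region of all 4 libraries was 777 kb away or farther. Such distances were common, with medians of 293 kb and 778 kb over one-library regions of all libraries. The last 2 regions of the run lay in an H3K4me3 region present in both H3K4me3 libraries, with folds of 88.7 and 106, while the other 3 lay outside the mark. These 3 were separate peaks on one side of that H3K4me3 region, from 919 to 6075 bp away, as the map of the run shows. The lists hold no signal between peaks. These 5 regions included 4 of the 6 highest folds among all 581.

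**Figure D3:**
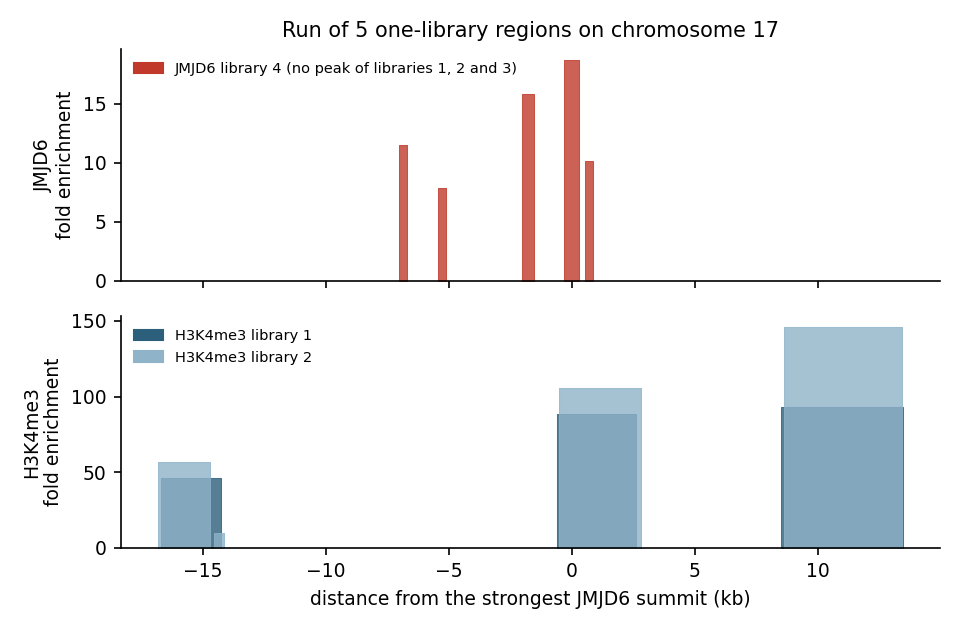
Peaks around the run of 5 one-library regions on chromosome 17, drawn to scale by distance from its strongest summit (kb), with the height of each block giving the fold enrichment of that peak in JMJD6 library 4 (top) and in the 2 H3K4me3 libraries (bottom). The JMJD6 peaks, from 7.89 to 18.7 fold, include 3 to the left of the central H3K4me3 region and 2 inside it, and JMJD6 libraries 1, 2 and 3 have no peak in the window.

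A second group of library 4 lay elsewhere on chromosome 17. It comprised chr17:53345118-53345449 with a fold of 12.5 and 25 fragments, chr17:53392558-53392854 with 9.15 and 18 fragments and chr17:53397976-53398230 with 6.50 and 16 fragments. None of the 3 overlapped H3K4me3, and the nearest region of all 4 libraries was 2.54 Mb or more from each of them. The last 2 formed a run, and both were named after their values were seen. A run of 2 on chromosome 8, made up of the widest region and a neighbour 306 bp away, also lay outside the mark, with the nearest H3K4me3 86.7 kb from the neighbour. Of the 8 runs 5 had 0 regions with H3K4me3, and 6 had 0 peaks of another library within 30 kb. Such isolation was not particular to runs, since the median distance to a peak of another library was 293 kb over all one-library regions. The counts for single regions use 10 kb, not the 30 kb used for runs. Of all 581 one-library regions, 34 had a peak of another library within 10 kb, and 249 lay outside H3K4me3.

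One-library regions were spread over the chromosomes much as other JMJD6 regions were, with some shifts. Chromosome 19, which is dense in genes, held 54 of 581 (9.29%) against 107 of 685 regions of all 4 libraries (15.6%). By library its share was 13.8% in library 1, 7.09% in library 2, 17.9% in library 3 and 8.54% in library 4. Libraries 1 and 3 thus lay near the share of the regions of all 4, and libraries 2 and 4 below it, on counts of 9, 21, 10 and 14 regions. Chromosome 17 held 19 of the 164 regions of library 4 (11.6%), of which 8 belonged to the 2 groups just described, and from 4.62% to 8.93% in the other libraries.

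More than 1 in 2 one-library regions overlapped H3K4me3, a smaller share than among merged JMJD6 regions as a whole. The 2 H3K4me3 libraries had 18745 and 18601 peaks, and 16218 merged H3K4me3 regions held a peak of both. Of the 581 one-library regions 332 (57.1%, 95% Clopper-Pearson interval 53.0 to 61.2%) overlapped such a region by at least 1 bp, where 70.7% of all 1689 merged JMJD6 regions did. The share was 67.4% in regions of 2 libraries, 72.8% in regions of 3 and 82.8% in regions of 4. A further 4 one-library regions overlapped a peak of a single H3K4me3 library.

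The share with the mark varied between libraries. In library 4 132 of 164 one-library regions overlapped H3K4me3 (80.5%, 95% Clopper-Pearson interval 73.6 to 86.3%). In library 1 43 of 65 did (66.2%, 53.4 to 77.4%), and in library 3 38 of 56 (67.9%, 54.0 to 79.7%). In library 2 it was 119 of 296 (40.2%, 34.6 to 46.0%). The intervals cover counting of regions, which are not replicates. Library 2 was the lowest, and its interval lay below those of the other libraries. The gap between library 2 and the next lowest was 0.644 of the whole range, below Dixon's 95% critical value of 0.829 for 4 values. That measure flagged 0 of the 10 quantities examined. With 4 values it can hardly flag a library, so it does not decide whether library 2 was an outlier. Without the regions of library 2 the share over the other libraries was 74.7% (213 of 285), and without those of library 4 it was 48.0% (200 of 417). Library 2 held 177 of the 249 one-library regions outside the mark (71.1%).

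Each library's share was set against its own peaks in regions of all 4 libraries. Of these peaks 82.2%, 82.7%, 81.4% and 81.6% overlapped the mark in libraries 1 to 4, and the values are alike by construction, since the 685 regions are the same. The one-library share minus that share was −16.03 percentage points in library 1, −42.5 in library 2, −13.6 in library 3 and −1.07 in library 4. The mean difference was −18.3 ± 17.4 percentage points (SD, n = 4), lower in 4 of 4 libraries. An exact 2-sided sign permutation test over the 4 libraries gave p = 0.125, the smallest value that 16 sign patterns allow, so the design could not reach 0.05. The 4 differences share what they are set against.

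The direction in library 4 depended on the setting. Its difference was 0.41 percentage points with peaks of −log10 q of at least 5, 1.27 with equal numbers of peaks and 0.77 without library 3. When the summit itself had to lie inside the mark, 78.0% of its one-library regions did so against 74.8% of its peaks in regions of all 4, and the mean difference over libraries was −13.0 percentage points with p = 0.25 (exact sign permutation test). Since one-library regions are narrower, the summit is the measure that width does not enter. For library 2 the summit shares were 36.5% and 75%.

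**Figure D4:**
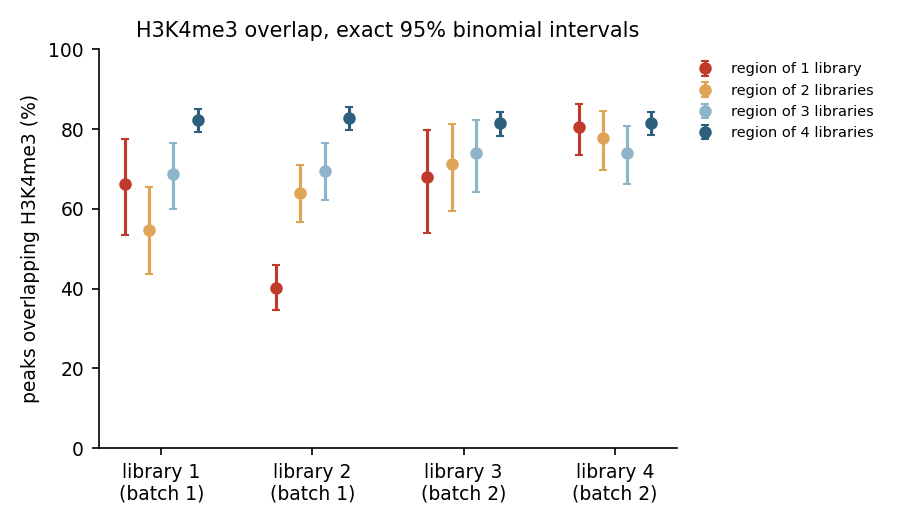
Share of JMJD6 peaks that overlap an H3K4me3 region of both H3K4me3 libraries (percent, vertical axis), by library and by the number of libraries in the merged region, with exact 95% binomial intervals. The 4 dark blue points lie between 81.4% and 82.7%, while the red points, the one-library regions, run from 40.2% in library 2 to 80.5% in library 4.

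By sequencing batch the pooled share was 44.9% (162 of 361) in batch 1, where library 2 supplied 296 of the 361 regions, and 77.3% (170 of 220) in batch 2. Libraries 1 and 3, from different batches, had like shares of 66.2% and 67.9%. The mean difference from the regions of all 4 was −29.3 percentage points within batch 1 and −7.31 within batch 2. With 2 libraries each, the batches cannot be told apart from the libraries in them, and H3K4me3 itself was measured in batch 2. Among regions of exactly 2 libraries, the pair of batch 1 had the mark in 27 of 59 (45.8%, 95% Clopper-Pearson interval 32.7 to 59.2%) and the pair of batch 2 in 20 of 24 (83.3%, 62.6 to 95.3%). Across batches the share was 84.2% for libraries 1 and 4 (16 of 19) and 75% for libraries 2 and 4 (66 of 88). It was 65.9% for libraries 2 and 3 (27 of 41) and 62.5% for libraries 1 and 3 (5 of 8). The pairs that included library 4 thus had the 3 highest shares, but the intervals of the pairs across batches overlapped. They were 60.4 to 96.6% for libraries 1 and 4 and 64.6 to 83.6% for libraries 2 and 4. For libraries 2 and 3 the interval was 49.4 to 79.9%, and for libraries 1 and 3 it was 24.5 to 91.5%.

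Within library 2 the regions outside the mark were not the weaker ones. The 177 without H3K4me3 had a median fold of 5.69 and a median −log10 q of 7.51, and the 119 with it had 5.15 and 5.74. Their median pileups were 20 and 18 fragments, and their median backgrounds 2.71 and 2.35. In the other libraries the median folds with and without the mark were 5.90 and 5.85 (library 1), 6.34 and 6.16 (library 3) and 6.12 and 6.12 (library 4). When the lists were shortened to 923 peaks each, the share of library 2 was 30.6%, lower than with its full list, while those of libraries 1, 3 and 4 were 69.1%, 72.3% and 82.9%.

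Most regions outside the mark lay more than 1 kb from it. Their median distance to the nearest H3K4me3 region was 29.0 kb in library 1, 26.1 kb in library 2, 16.03 kb in library 3 and 14.7 kb in library 4. Peaks of regions of all 4 that lay outside the mark were at medians of 22.3 to 25.1 kb. Within 1 kb of the mark lay 2 of 22 such regions in library 1, 10 of 177 in library 2, 2 of 18 in library 3 and 4 of 32 in library 4. For peaks of regions of all 4 outside the mark these counts were 11 of 124, 9 of 119, 15 of 129 and 14 of 128.

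Where a one-library region did overlap H3K4me3, the mark had a height near that found at regions of all 4 libraries. The median fold of the overlapped H3K4me3 region was 83.4 for library 1, 75.8 for library 2, 69.9 for library 3 and 74.4 for library 4. For the peaks in regions of all 4 it was 72.8, 73.0, 73.0 and 73.6, and over all 16218 H3K4me3 regions it was 56.1. The overlapped H3K4me3 regions had median widths of 2205, 2203, 1838 and 2250 bp, against 1810 bp over all of them, and a wider region has more bases at which an overlap can occur. Summits of these one-library regions lay at a median of 424 to 448 bp from the middle of the H3K4me3 region, and those of regions of all 4 at 455 to 460 bp.

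The nearest region of all 4 libraries was usually far from a one-library region. The median distance from edge to edge was 541 kb in library 1, 975 kb in library 2, 238 kb in library 3 and 783 kb in library 4, and 778 kb over the 580 regions that had a region of all 4 on their chromosome. Of these, 7 lay within 1 kb, 18 within 10 kb and 109 (18.8%) within 100 kb, and 260 (44.8%) lay more than 1 Mb away. Within 100 kb lay 14.3% of regions of 2 libraries, 18.5% of regions of 3 and 24.5% of regions of 4 (to another such region), so the 18.8% of one-library regions was within the range of the others. The median was 733 kb for regions of 2 libraries, 601 kb for regions of 3 and 462 kb between one region of all 4 and the next.

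The nearest to a region of all 4 was chr12:120728878-120729200 of library 4, with a fold of 6.74 and 13 fragments, 3 bp from its edge. It is also the closest case inside the selection rule, since any peak of another library sharing 1 bp with it would have removed it. The farthest was chr4:185458703-185458934 of library 2, with a fold of 6.62 and 20 fragments inside H3K4me3, at 78.3 Mb. In library 2 the regions with H3K4me3 lay at a median of 525 kb from a region of all 4 and those without at 1462 kb. In library 1 these medians were 361 kb and 1216 kb. In library 3 they were 454 kb and 85.5 kb, and in library 4 they were 819 kb and 748 kb. Regions with the mark were thus the nearer ones in libraries 1 and 2 and the farther ones in library 3, while in library 4 the medians lay close together. These medians rest on 22 to 177 regions each in libraries 1 and 2. In libraries 3 and 4 they rest on 18 to 132 regions each, and no difference was tested.

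**Figure D5:**
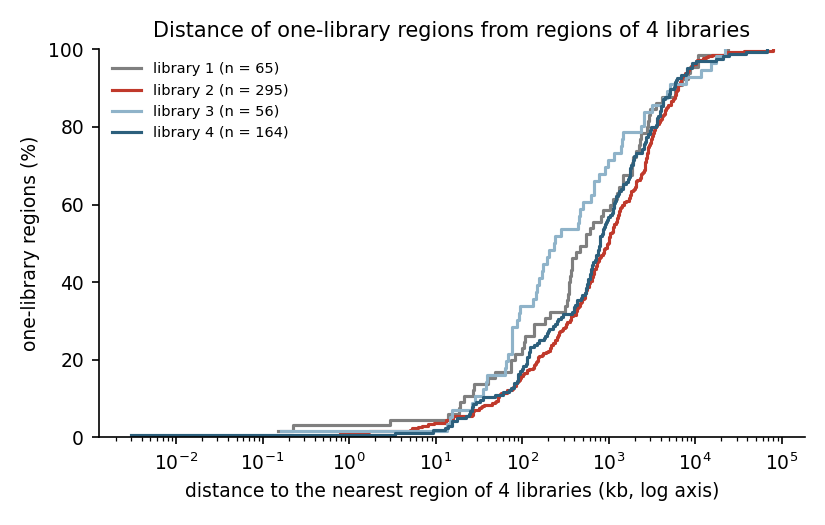
Cumulative share of one-library regions (percent, vertical axis) by distance to the nearest region of all 4 libraries (kb, log axis), with 1 line per JMJD6 library. The lines rise mainly between 10 kb and 10 Mb, with medians from 238 kb in library 3 to 975 kb in library 2.

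On the other side of the rule stood 239 regions of exactly 2 libraries, 83 from libraries of the same batch and 156 across batches. The pair with the most was libraries 2 and 4, with 88 regions. The weakest region of both batch 1 libraries was chr1:232730776-232731027, with folds of 3.60 in library 1 and 3.42 in library 2 and pileups of 20 and 22 fragments. The weakest of both batch 2 libraries was chr19:44488142-44488335, with folds of 5.32 and 5.78 and pileups of 9 and 11. The smallest overlap that placed a region outside the rule was 48 bp, in chr16:22308418-22308751 of libraries 1 and 4. Finally, 13 of the 581 one-library regions had a peak of another library within 500 bp, and the median distance to such a peak was 293 kb.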

How the data were processed

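JMJD6 ChIP-seq (4 libraries) and H3K4me3 ChIP-seq (2 libraries) of 786-O cells entered this work as the authors' peak lists, 1 list per library. The deposited columns hold a fold ratio over background, the −log10 p and −log10 q of each peak, a score that is 10 times the −log10 q, and positions. The layout and peak names are those of MACS2, and the submitters' processing notes list MACS2 2.1.2, bedtools 2.26 and hg19 without roles. The cut-off, duplicate removal and use of the inputs are not given in the sources used here. The depth of the libraries is unknown, and a list says nothing of signal outside its peaks.

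Peaks were merged at 1 bp of overlap with Python 3.11.15, pandas 2.3.3 and scipy 1.17.1, and the merging was checked against bedtools 2.31.1 and tested on simulated data. Coordinates are hg19, counted from 1. Members, lists and tests were chosen with earlier results of these data known. Regions were named by rule: the 3 highest and the lowest fold per library, the 5 highest q, the nearest, the farthest and the 3 widest, the 3 highest folds with and without H3K4me3, and the weakest 2-library region of each batch. Exceptions are marked in the text. The fragment pileup and the runs were measures added after the data had been seen. RNA changes near these regions were planned but not run, because an annotation of hg19 was not used here.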

Additional observations from a re-analysis of the deposited data

How the results depend on the processing

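The number of one-library regions ran from 391 to 602 of the merged regions over all settings, within 1.5 times of 581. Their share with H3K4me3 moved beyond its interval with equal numbers of peaks per library (63.9%). It also moved when the regions of library 2 (74.7%) or of library 4 (48.0%) were left out, both alternatives added after seeing the data. Leaving out 1 JMJD6 library and merging the other 3 anew gave 55.2 to 70.2%. The highest, without library 2, also lay beyond the interval. The mean over libraries of the median fold was 5.91 ± 0.385 (SD, n = 4), and 6.32 with only peaks at −log10 q of at least 5 and 6.63 with equal numbers. The median distance to a region of all libraries moved by less than the SD between libraries under all 8 settings tried. The difference in H3K4me3 share from regions of all libraries was negative on average in 13 of 13 alternatives, from −18.7 to −13.0 percentage points. Exact sign permutation p ran from 0.125 to 0.5. With 1 JMJD6 library left out, that test had 3 values and its p could not go below 0.25. The 0.5 was obtained without library 3. No paired analysis was possible because the replicate numbers that JMJD6 and H3K4me3 libraries have in common mark no shared sample, and no test compares the 2 kinds of library. The sign permutation test sets values of the same library against each other and uses no replicate number. The planned RNA alternatives were not run, since the RNA tables carry no hg19 positions. Median pileups of 12 to 19 fragments limit what a single region's presence or absence in a list can show.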
